A study of Mus musculus with 12 samples.

Results

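The 32 genes described here serve the endoplasmic reticulum (ER) of the hepatocyte: its chaperones, the machinery that brings new proteins into it, and the machinery that removes misfolded ones. They were listed by name and known role, with no value in the rule, and the list was drawn up with earlier results of these data known: 9 luminal chaperones and cofactors (Hspa5, Hyou1, Dnajb9, Dnajb11, Dnajc3, Sdf2l1, Hsp90b1, Creld2 and Manf), 6 lectin chaperones and disulfide isomerases (Calr, Canx, Pdia3, Pdia4, Pdia6 and P4hb), 8 genes of ER-associated degradation (Sel1l, Syvn1, Edem1, Edem2, Herpud1, Derl1, Derl2 and Derl3), 3 stress sensors and factors (Xbp1, Ern1 and Atf6) and 6 genes of translocation and signal peptide cleavage (Sec61a1, Sec61b, Ssr1, Ssr3, Sec11c and Spcs2). All 32 were found among the 28030 genes of the count table, by Ensembl identifier and mouse symbol, and all 32 passed the filter on low counts that left 12086 genes to be tested.

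Secreted and membrane proteins enter the ER through the Sec61 channel, lose their signal peptide, and are folded there by chaperones of the Hsp70 and Hsp90 families, by lectins that read their glycans and by enzymes that form disulfide bonds. Proteins that fail to fold are drawn back to the cytosol and destroyed by the proteasome. The unfolded protein response, run by the sensors IRE1 (encoded by Ern1), PERK and ATF6, sets the level of this machinery, and hepatocytes, which secrete most plasma proteins, hold a large ER and a large store of these chaperones.

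Hepatocytes were isolated from the livers of 12-week-old wild-type female mice on normal chow, and their total RNA was sequenced in 12 libraries, 3 in each of 4 groups. All mice were first trained for 3 days to fast overnight for 16 h and to eat for 8 h by day, and on the day of the experiment they had food and water with 20% sucrose. The fed groups had then eaten for 4 h when killed, and for the fasted groups food and sucrose water were taken away at that hour and the mice killed 24 h later. In each state there were hepatocytes of the pericentral zone (PC), around the central vein, and of the periportal zone (PP), where blood enters the lobule. The labels also name digitonin, a detergent that serves to remove the cells of the other zone. Libraries within a group are labelled as biological replicates, but no label says whether a PC and a PP library came from the same mouse. Where a mouse gave several libraries the p-values would not show it, and they measure the spread between these libraries only.

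Library totals ranged from 16245846 to 27449412 counts. Levels are given as CPM, counts scaled to a common library size after TMM, with the values of a group always in the order of replicates 1, 2 and 3. Pericentral markers (8 genes, among them Glul and Cyp2e1) summed to 13609 to 24193 CPM in PC and 372 to 1988 CPM in PP libraries. Most of that sum was Cyp2e1, and fasted PC replicate 1 stood apart in other pericentral markers. Its Glul was at 172 CPM, against 3639 and 2353 in fasted PC replicates 2 and 3 and 49.3 to 173 in the PP libraries. Its Slc1a2 was at 13.1 CPM, against 634 and 552, and its Oat at 452 CPM, against 2309 and 1971. Its Lgr5, at 9.32 CPM, lay between the 24.1 and 7.37 of fasted PC replicates 2 and 3. The periportal markers Hal and Cyp2f2 were higher in it, at 579 and 242 CPM. In fasted PC replicates 2 and 3 Hal was at 69.9 and 109 CPM and Cyp2f2 at 67.8 and 75.4 CPM. Sds, Gls2, Etnppl and Aldh1b1 were also higher in fasted PC replicate 1. Cdh1, at 5.46 against 5.96 and 6.76 CPM, and Pck1 were slightly lower in it. Periportal markers summed to 428 to 539 CPM in fed PC and 4775 to 5082 in fed PP. In fasted mice the sums were 4907 to 5842 CPM in PC and 11442 to 15467 in PP. The sums separated the zones within each feeding state, but that of fasted PC reached that of fed PP. Most of the fasted PC sum was Pck1, at 4382, 4672 and 4516 CPM, against 1271, 791 and 332 in fed PP. Every other periportal marker was lower in each fasted PC library than in each fed PP library. Albumin and 7 other hepatocyte genes summed to 86367 to 173604 CPM. Summed markers of Kupffer cells (7 genes), endothelium (7), stellate cells (7) and plasma cells and lymphocytes (10) reached at most 8.65, 18.0, 15.1 and 7.65 CPM. Cholangiocyte markers (7) summed to 23.7 to 27.9 CPM in fed PC, 36.4 to 47.6 in fed PP, 13.5 to 25.1 in fasted PC and 33.8 to 37.7 in fasted PP, with Epcam at 0 in 9 libraries and Cftr at 0 in 10. Genes that cell isolation induces (11 genes, among them Fos and Hspa1a) overlapped between all 4 groups, from 166.1 to 464.3 CPM. In bulk RNA, fewer cells of a type and less RNA per cell cannot be told apart.

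Fed PP replicate 1 stood apart from the other fed libraries in the summed level of the genes. It was the highest of its group for 23 of the 32 genes, and fed PP replicate 2 was the lowest for 18. In fed PC, replicate 1 was the highest for 21 and replicate 3 the lowest for 23. The 32 genes together made up 1.53% of all counts in fed PP replicate 1, against 0.971% and 1.23% in fed PP replicates 2 and 3, 0.929% to 1.16% in fed PC, 0.58% to 0.627% in fasted PC and 0.613% to 0.688% in fasted PP. Every fasted library therefore lay below every fed library in this summed share, with or without fed PP replicate 1. Within fed PP the median gene had an SD of 0.29 on the log2 scale, against 0.21 over all tested genes. In the other groups it was 0.17, against 0.15 in fed PC, 0.23 in fasted PC and 0.22 in fasted PP over all tested genes.

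Promoters of several of the genes carry letters of a shared element, and they are shown for that reason. RefSeq (GRCm38.p6) gives a promoter, from 250 bases before to 50 after the annotated start, for 26 of the 32. It gave none for Sec61a1, Atf6, Derl1, Manf, Hyou1 and Sec11c. The ER stress response element (ERSE, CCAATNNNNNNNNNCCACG, searched on both strands) is the sequence that ATF6, together with the CCAAT-binding factor NF-Y, is known to bind. Letters of this motif were found in 9 of the 26 members (34.6%) and in 37 of 27025 genes with a promoter (0.137%). The members were listed by known role in the ER, so a higher share among them was not a test of the element. The same holds for the other motifs below. The 10 matches of the 9 genes follow, each read on the gene's strand, with the match in capitals and 5 bases on either side. A match that begins with CGTGG lies on the other strand. The start is that of RefSeq. GENCODE places the start of Hspa5 further upstream, and its match, alone of the 10, lies within an exon of the gene there.
Calr, chr8:84847075-84847093, - strand, 144 to 162 bases before the start: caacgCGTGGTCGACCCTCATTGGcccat
Canx, chr11:50325800-50325818, - strand, 127 to 145 bases before the start: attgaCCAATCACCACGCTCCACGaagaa
Creld2, chr15:88819520-88819538, + strand, 108 to 126 bases before the start: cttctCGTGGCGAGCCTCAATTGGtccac
Derl3, chr10:75893242-75893260, + strand, 138 to 156 bases before the start: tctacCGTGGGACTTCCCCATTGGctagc
Dnajc3, chr14:118937827-118937845, + strand, 87 to 105 bases before the start: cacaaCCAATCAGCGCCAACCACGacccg
Hsp90b1, chr10:86705533-86705551, - strand, 89 to 107 bases before the start: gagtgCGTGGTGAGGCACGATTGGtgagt
Hsp90b1, chr10:86705638-86705656, - strand, 194 to 212 bases before the start: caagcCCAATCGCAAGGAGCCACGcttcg
Hspa5, chr2:34772025-34772043, + strand, 47 to 65 bases before the start: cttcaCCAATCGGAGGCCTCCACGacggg
Pdia6, chr12:17266491-17266509, + strand, 80 to 98 bases before the start: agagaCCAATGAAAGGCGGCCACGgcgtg
Syvn1, chr19:6046532-6046550, + strand, 26 to 44 bases before the start: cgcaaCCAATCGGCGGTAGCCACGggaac

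The short variant ERSE-II (ATTGG, any base, then CCACG; both strands) was found in Herpud1 and Dnajb11 only, 7.69% of the members with a promoter against 12 genes, or 0.0444%, in all. In Herpud1 it lay 42 to 52 bases before the start. In Dnajb11 it lay after the start, at chr16:22857852-22857862. Herpud1 was also the only member with the core of the amino acid response element (CARE, TGATGCAA, both strands), as ttgcatca on its own strand at chr8:94386317-94386324. That core was in 1.03% of all promoters. Neither the core of the XBP1-bound element (UPRE, TGACGTGG, both strands; 0.714% of all promoters) nor the cyclic AMP response element (CRE, TGACGTCA; 2.03%) was found in a member. No motif overlapped another in a member. Stretches of 250 bases that end just before the RefSeq start are printed, with ERSE or ERSE-II in capitals: those of Creld2 and Syvn1, whose mRNAs fell in fasted mice, and that of Herpud1, whose mRNA rose.
Creld2, chr15:88819396-88819645, + strand: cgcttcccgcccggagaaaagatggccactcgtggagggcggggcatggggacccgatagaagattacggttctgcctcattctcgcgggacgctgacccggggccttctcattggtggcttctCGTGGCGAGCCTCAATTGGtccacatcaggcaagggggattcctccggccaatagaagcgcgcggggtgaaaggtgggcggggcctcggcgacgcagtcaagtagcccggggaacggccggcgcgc
Syvn1, chr19:6046326-6046575, + strand: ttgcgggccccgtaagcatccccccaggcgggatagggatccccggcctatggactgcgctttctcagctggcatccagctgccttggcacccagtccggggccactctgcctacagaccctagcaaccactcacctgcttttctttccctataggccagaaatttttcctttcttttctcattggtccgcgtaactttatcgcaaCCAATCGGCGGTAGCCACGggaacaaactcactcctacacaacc
Herpud1, chr8:94386179-94386428, + strand: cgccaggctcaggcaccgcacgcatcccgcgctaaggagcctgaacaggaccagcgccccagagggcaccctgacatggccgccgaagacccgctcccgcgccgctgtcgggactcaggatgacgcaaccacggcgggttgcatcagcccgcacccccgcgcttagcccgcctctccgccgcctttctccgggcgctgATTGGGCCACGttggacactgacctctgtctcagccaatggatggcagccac

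Nearly the whole set was lower after fasting. In fasted PC, 22 of the 32 genes were lower than in fed PC and 1, Herpud1, was higher, where 10.2% of all tested genes were called lower, 11.1% higher and 21.4% in either direction (edgeR's quasi-likelihood test, Benjamini-Hochberg adjusted p under 0.05). In fasted PP, 26 were lower and Herpud1 was again higher, against 9.5% lower, 8.39% higher and 17.9% in either direction over all genes. All 22 genes called lower in PC were also called lower in PP (6.45% of all tested genes were lower in both), and Sel1l, Syvn1, Edem2 and Derl3 were called lower in PP but not in PC. The PP calls of Sel1l, Derl3 and Syvn1 were lost in 13, 12 and 4 of the 17 alternative settings described below, while that of Edem2 held in all. For none of these genes did the response pass the test of a difference between the zones. The mean of both zones, which rests on all 12 libraries, gave 29 lower and 1 higher, against 17.5% lower, 17.8% higher and 35.3% in either direction over all genes. The median log2 fold change of the 32 genes in that comparison was -0.80, and that of all tested genes was -0.001. Atf6 and Spcs2 were not called.

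The single libraries were compared by their ranges. All 6 fasted libraries lay below all 6 fed ones for 23 genes and above them for Herpud1, where 8.15% and 7.77% of all tested genes were separated in these directions. Without fed PP replicate 1, 22 genes were lower in fasted PP and 27 over both zones, with a median log2 fold change of -0.74. Without fasted PC replicate 1, the library with low Glul, 18 were lower in fasted PC and 27 over both zones, with a median of -0.86. The count lower in PC ranged from 16 to 23 when any single library was left out, and that in PP from 20 to 26.

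**Figure D1:**
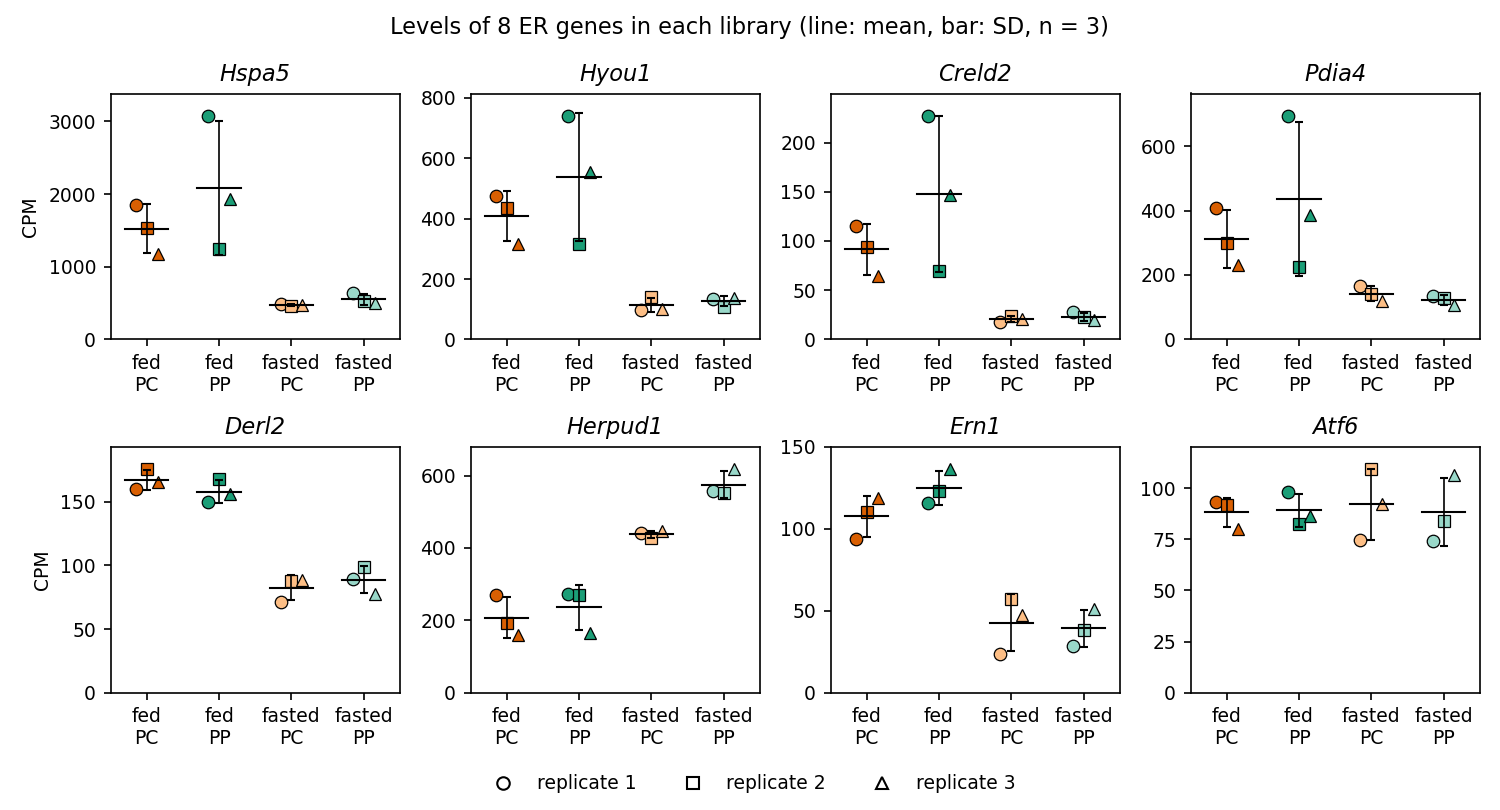
Levels of 8 of the genes in each library, in CPM on a linear axis from 0, with replicates 1 to 3 as circle, square and triangle, the mean as a line and the SD as a bar (n = 3 libraries per group). Hspa5, Hyou1, Creld2, Pdia4, Derl2 and Ern1 were lower in every fasted library than in every fed one, Herpud1 was higher in every fasted library, and the Atf6 libraries overlapped.

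The luminal chaperones fell furthest as a group: all 9 were lower in both zones, with a median log2 fold change over both zones of -1.79. Hspa5 encodes BiP, the Hsp70 of the ER. Its level was 1851, 1537 and 1177 CPM in fed PC and 3077, 1246 and 1931 CPM in fed PP. After fasting it was 486, 464 and 479 CPM in fasted PC and 639.8, 525 and 497 CPM in fasted PP. The highest fasted library lay well below the lowest fed one, and the log2 fold change over both zones was -1.79 ± 0.19 (SE; adjusted p = 3.8e-05). Fasted PC held 31.3% of the fed PC mean and fasted PP 26.6% of the fed PP mean.

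Hyou1, a large Hsp70 relative that exchanges the nucleotide of BiP, stood at 476, 437 and 317 CPM in fed PC and 740.3, 317 and 553 CPM in fed PP. It fell to 98.1, 142 and 102 CPM in fasted PC and 135, 108 and 138 CPM in fasted PP. Fed and fasted libraries did not overlap, and the change was -1.97 ± 0.20 (log2, SE; adjusted p = 2.8e-05). Hsp90b1, the Hsp90 of the ER, was at 1293, 1182 and 932 CPM in fed PC and 1922, 1022 and 1530.0 CPM in fed PP. With fasting it was at 726, 623 and 674 CPM in fasted PC and 751, 778 and 601 CPM in fasted PP. This was a smaller change, -0.91 ± 0.14 (log2, SE; adjusted p = 0.00042), with no overlap between fed and fasted libraries. Reads of Hsp90b1 may be less certain, since 12.3% of its 31-base words occur in other genes.

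The J-domain cochaperones, which pass clients to BiP, were also lower, at smaller fold changes than that of Hspa5. Dnajb9 was at 129, 124 and 103 CPM in fed PC and 151, 136 and 85.4 CPM in fed PP. Fasted mice held 59.2, 57.2 and 73.8 CPM in fasted PC and 58.4, 68.6 and 65.1 CPM in fasted PP. Its fasted libraries all lay below its fed ones, although fed PP replicate 3 was close to them, and the change was -0.93 ± 0.13 (log2, SE; adjusted p = 2e-04). Dnajb11 was at 143, 126 and 102 CPM in fed PC and 195, 113 and 156 CPM in fed PP. It came down to 56.1, 60.1 and 61.6 CPM in fasted PC and 85.7, 74.8 and 65.4 CPM in fasted PP. The groups did not overlap, and the change was -1.05 ± 0.13 (log2, SE; adjusted p = 7.4e-05). Dnajc3 was at 347, 328 and 255 CPM in fed PC and 493, 355 and 405 CPM in fed PP. After fasting it was at 217, 227 and 224 CPM in fasted PC and 293, 286 and 281 CPM in fasted PP. Here the fasted PP libraries reached above the lowest fed PC library, so that the states separated only within each zone. The change was -0.51 ± 0.10 (log2, SE; adjusted p = 0.0015).

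The other three luminal genes are cofactors, among them the pair with the largest falls of the 9, Creld2 and Sdf2l1. Creld2, a secreted protein of the ER that stress induces, was at 116, 94.3 and 64.3 CPM in fed PC and 227, 69.4 and 147 CPM in fed PP. It fell to 17.7, 23.3 and 21.2 CPM in fasted PC and 27.7, 22.3 and 19.6 CPM in fasted PP. No fasted library came near a fed one, and the change was -2.41 ± 0.27 (log2, SE; adjusted p = 8.8e-05). Manf, which binds BiP and can be secreted, was at 278, 239 and 194 CPM in fed PC and 413, 200.2 and 250.1 CPM in fed PP. It fell to 64, 79.8 and 56.1 CPM in fasted PC and 96.5, 63.7 and 66.8 CPM in fasted PP. Again the states were apart in every library, with a change of -1.88 ± 0.19 (log2, SE; adjusted p = 2.9e-05). Sdf2l1, which works in a complex with Dnajb11, was at 56.2, 43.6 and 22.3 CPM in fed PC and 108, 24.6 and 43.9 CPM in fed PP. The fasted level was 9.01, 9.81 and 7.54 CPM in fasted PC and 16.7, 7.38 and 7.71 CPM in fasted PP. The fasted libraries were lower throughout, but the fed libraries spread widely, with the highest fed PP library 4.40 times the lowest. The change was -2.35 ± 0.41 (log2, SE; adjusted p = 0.0017), and in PP alone it was -2.48 with and -1.69 without fed PP replicate 1.

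The lectins and disulfide isomerases were all 6 lower over both zones, with a median log2 fold change of -0.90. Calr encodes calreticulin, the soluble lectin chaperone. It was at 869, 770.3 and 709.5 CPM in fed PC and 1050.2, 838 and 1010.0 CPM in fed PP. After fasting it was at 434, 400.2 and 437 CPM in fasted PC and 481, 571 and 496 CPM in fasted PP. Every fasted library was below every fed one, and the change was -0.90 ± 0.09 (log2, SE; adjusted p = 1.5e-05). Canx encodes calnexin, its membrane-bound counterpart, and was at 477, 447 and 395 CPM in fed PC and 549.6, 490.0 and 493 CPM in fed PP. After 24 h without food it was at 336, 308 and 312 CPM in fasted PC and 323, 368 and 337 CPM in fasted PP. The fall was smaller, -0.52 ± 0.08 (log2, SE; adjusted p = 0.00024), and the libraries of the 2 states did not overlap.

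Pdia3 is the isomerase that both lectins recruit. It was at 530.4, 488 and 395 CPM in fed PC and 722, 484 and 623 CPM in fed PP. It fell to 268, 241 and 266 CPM in fasted PC and 325, 339 and 292 CPM in fasted PP. The states were apart in every library, by -0.90 ± 0.11 (log2, SE; adjusted p = 5.9e-05). Pdia6, an isomerase that associates with BiP, was at 358, 315 and 248 CPM in fed PC and 502, 384 and 419 CPM in fed PP. It fell to 159.7, 159 and 148 CPM in fasted PC and 238, 224 and 206 CPM in fasted PP. The fall was of like size in both zones, and over both it was -0.97 ± 0.10 (log2, SE; adjusted p = 1.9e-05). Pdia4, another luminal isomerase, was at 408, 298 and 231 CPM in fed PC and 694, 225 and 387 CPM in fed PP. After fasting it was at 166, 139.6 and 121 CPM in fasted PC and 133, 129 and 106 CPM in fasted PP. Its fed libraries spread 3.09-fold within PP and still did not reach down to the fasted ones, and the change was -1.48 ± 0.25 (log2, SE; adjusted p = 0.00097).

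P4hb, protein disulfide isomerase itself and also a subunit of the triglyceride transfer protein that loads lipoproteins, moved least of the 6. It was at 1442, 1570.0 and 1537 CPM in fed PC and 1747, 1773 and 1873 CPM in fed PP. In fasted mice it was at 1108, 1380.2 and 1342 CPM in fasted PC and 1273, 1696 and 1500.5 CPM in fasted PP. Fasted PP libraries overlapped fed PC ones, and the change over both zones was -0.26 ± 0.09 (log2, SE; adjusted p = 0.04). That call was lost, with values between -0.28 and -0.21, when any single library other than fasted PC replicate 2 or fasted PP replicate 2 was left out. In neither zone alone was P4hb called: the change was -0.25 ± 0.13 in PC (adjusted p = 0.19) and -0.27 ± 0.13 in PP (adjusted p = 0.17).

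**Figure D2:**
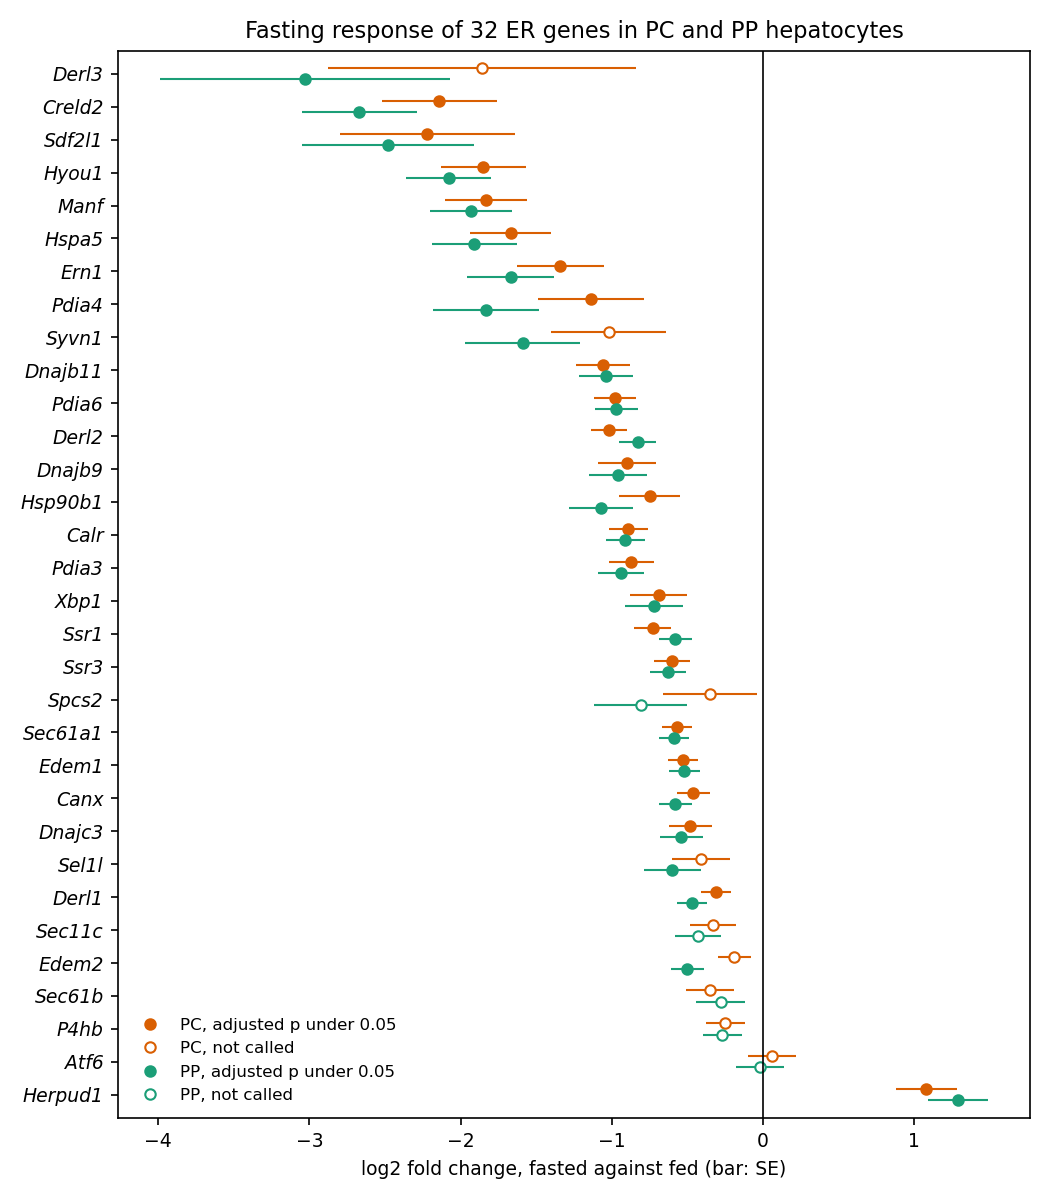
Log2 fold change of each of the 32 genes in fasted against fed mice, in PC (orange) and PP (green), with the SE as a bar and filled points for an adjusted p under 0.05. Derl3, Creld2 and Sdf2l1 lie furthest to the left, Atf6 lies at 0 and Herpud1 alone lies to the right.

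The degradation genes held the only rise and, in the rare Derl3, the largest fall, which was no longer the largest without fed PP replicate 1. Over both zones 7 of 8 were lower and Herpud1 was higher, with a median log2 fold change of -0.51. Herpud1 encodes a membrane protein that gathers the ubiquitin ligase and the derlins into the degradation complex. It was at 269, 194 and 160.5 CPM in fed PC and 273, 269 and 165 CPM in fed PP. With fasting it was at 441, 427 and 446 CPM in fasted PC and 556, 551 and 618 CPM in fasted PP. Each of the 6 fasted libraries was above each fed library, and the log2 fold change was 1.18 ± 0.14 (SE; adjusted p = 6.3e-05). It was called higher in PC at 1.08 ± 0.20 (adjusted p = 0.003) and in PP at 1.29 ± 0.20 (adjusted p = 0.0013), and these calls held under every alternative that was run. Fed PP replicates 1 and 2, which differed 2.47-fold in Hspa5, were close in Herpud1, at 273 and 269 CPM.

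Syvn1 encodes the ubiquitin ligase of the complex, and Sel1l its scaffold. Syvn1 was at 77.3, 60.8 and 38.8 CPM in fed PC and 151, 45.2 and 77.6 CPM in fed PP. It fell to 31.3, 29.3 and 27 CPM in fasted PC and 28.4, 33.3 and 29.5 CPM in fasted PP. Fed libraries from 38.8 to 151.4 CPM all lay above the fasted ones, and the change was -1.30 ± 0.27 (log2, SE; adjusted p = 0.0037). In PP alone Syvn1 changed by -1.59 with and -1.0 without fed PP replicate 1. Sel1l was at 234, 212 and 174 CPM in fed PC and 323, 177 and 261 CPM in fed PP. Fasted mice held 147, 157 and 164 CPM in fasted PC and 145, 187 and 172 CPM in fasted PP. The fasted PP libraries reached into the fed range, and the change over both zones was -0.50 ± 0.13 (log2, SE; adjusted p = 0.011).

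Edem1 and Edem2 trim the mannose of glycoproteins that are to be degraded. Edem1 was at 157, 158 and 144 CPM in fed PC and 166, 152 and 166 CPM in fed PP. It fell to 99, 107 and 112 CPM in fasted PC and 109, 121 and 107 CPM in fasted PP. These fed libraries were close to each other, and the fall of -0.53 ± 0.07 (log2, SE; adjusted p = 9.1e-05) had like values in the zones, -0.53 ± 0.10 and -0.52 ± 0.10. Edem2 was at 46.4, 49.7 and 50.9 CPM in fed PC and 52.2, 65.1 and 60.2 CPM in fed PP. After fasting it was at 38.1, 46.9 and 43.6 CPM in fasted PC and 41.7, 42.4 and 41.4 CPM in fasted PP. Fed and fasted PC libraries overlapped. The change over both zones was -0.35 ± 0.07 (log2, SE; adjusted p = 0.0033), with -0.19 ± 0.11 in PC (adjusted p = 0.22) and -0.50 ± 0.11 in PP (adjusted p = 0.0066).

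The derlins are membrane proteins of the retrotranslocation site. Derl1 was at 151, 156 and 157 CPM in fed PC and 167, 186 and 162 CPM in fed PP. It fell to 124, 133 and 119 CPM in fasted PC and 118, 136 and 116 CPM in fasted PP. The states were apart in every library but only by -0.39 ± 0.07 (log2, SE; adjusted p = 0.00094). Derl2 was at 160.2, 176 and 166 CPM in fed PC and 149.9, 168 and 156 CPM in fed PP. It fell to 71.6, 87.7 and 88.5 CPM in fasted PC and 89, 98.9 and 77.8 CPM in fasted PP. Narrow groups gave this gene the smallest adjusted p of the 32, adjusted p = 7.8e-06, at a change of -0.93 ± 0.08 (log2, SE). Derl3 was rare: 1.99, 1.36 and 0.637 CPM in fed PC and 9.72, 0.61 and 1.82 CPM in fed PP. The fasted level was 0.515, 0.241 and 0.333 CPM in fasted PC and 1.05, 0.22 and 0.228 CPM in fasted PP. The change of -2.45 ± 0.70 (log2, SE; adjusted p = 0.018) was -1.58 without fed PP replicate 1, which was the highest library by far, and fed and fasted libraries overlapped. The plasma cell marker Jchain was between 0.104 and 1.39 CPM in these libraries and Mzb1 at 0 in 7 of them, and the part of such cells in the Derl3 value was not tested.

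**Figure D3:**
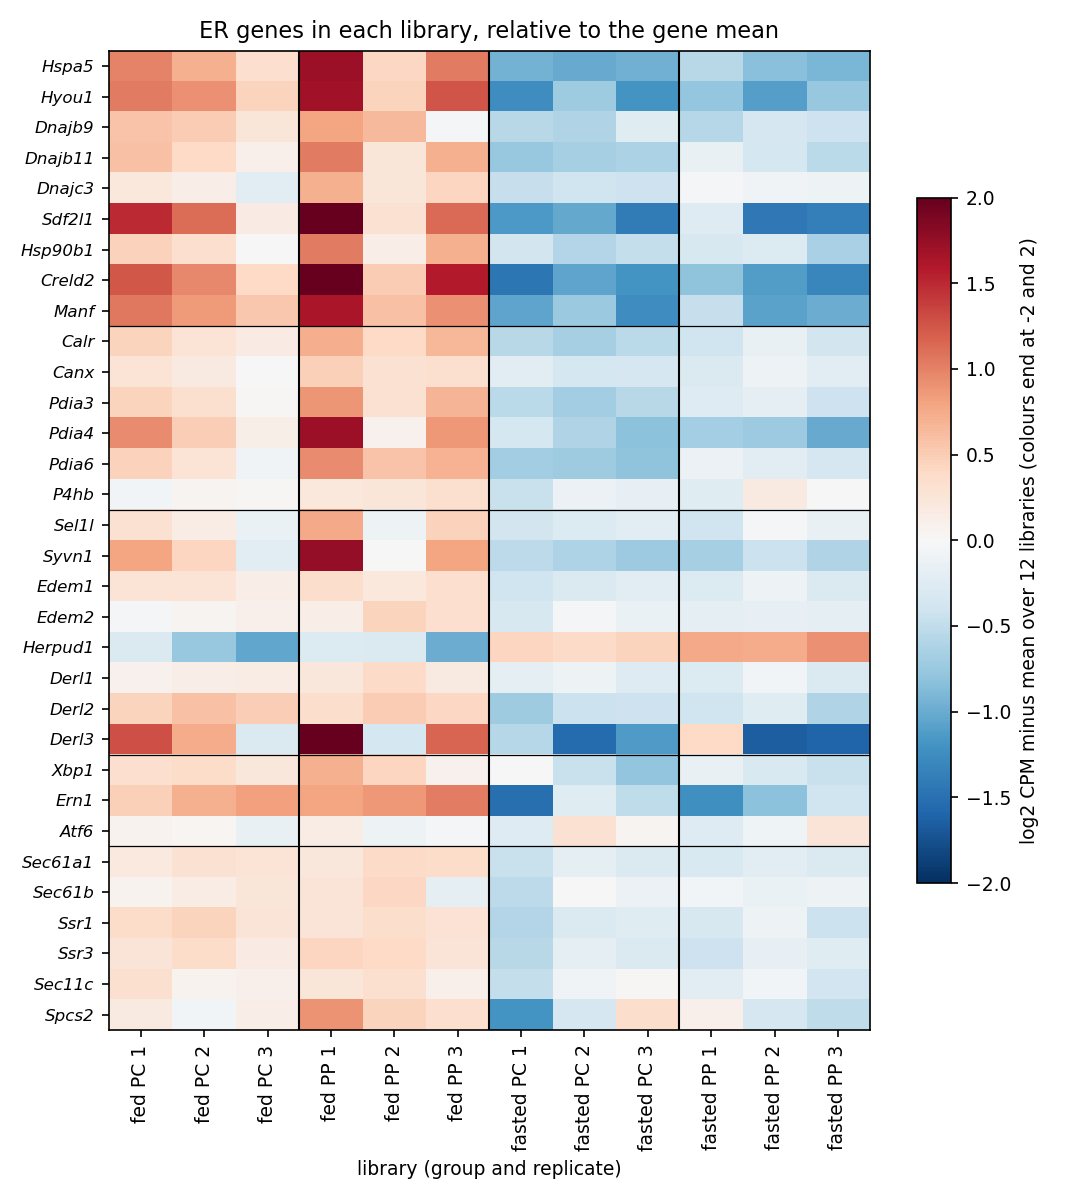
Each of the 32 genes (rows, by role) in each of the 12 libraries (columns, by group and replicate), as log2 CPM minus the mean of the gene over all 12, with red for higher and blue for lower and colours that end at -2 and 2. Fed libraries are red and fasted ones blue in nearly all rows, fed PP replicate 1 is the darkest fed column, and the Herpud1 row runs the other way.

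Of the 3 sensors and factors, Ern1 and Xbp1 fell and Atf6 did not pass the test. Ern1 encodes the sensor IRE1, a kinase and ribonuclease that splices the mRNA of the transcription factor Xbp1. Ern1 was at 93.9, 110.2 and 119 CPM in fed PC and 116, 123 and 136 CPM in fed PP. It fell to 23.5, 57.1 and 47.4 CPM in fasted PC and 28.6, 38.2 and 51.1 CPM in fasted PP. Fed libraries lay above all fasted ones, and fasted PC replicate 1 and fasted PP replicate 1 were the lowest of their groups. The change was -1.50 ± 0.20 (log2, SE; adjusted p = 0.00023). Xbp1 was at 189, 194 and 175 CPM in fed PC and 245, 203 and 160.0 CPM in fed PP. After 24 h without food it was at 149, 110.2 and 87.1 CPM in fasted PC and 136, 122 and 110.5 CPM in fasted PP. All fasted libraries were lower, by -0.71 ± 0.13 (log2, SE; adjusted p = 0.0014). Counts per gene do not tell the spliced from the unspliced Xbp1 mRNA.

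Atf6, the membrane-bound factor that is cut free in the Golgi when proteins misfold, was at 93, 91.6 and 80.1 CPM in fed PC and 98.3, 82.5 and 86.6 CPM in fed PP. In fasted mice it was at 74.4, 109 and 92.4 CPM in fasted PC and 74.3, 83.8 and 107 CPM in fasted PP. Fed and fasted libraries overlapped in both zones. The change over both zones was 0.02 ± 0.11 (log2, SE; adjusted p = 0.89), with a 95% interval from -0.22 to 0.26. The sign of this value turned when any of several single libraries was left out: it was -0.01 when fed PC replicate 3 was removed and likewise -0.01 when fed PP replicate 2 was, -0.05 without fasted PC replicate 2 and -0.06 without fasted PP replicate 3.

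Of the translocation genes, over both zones 5 of the 6 were lower, with a median log2 fold change of -0.58. None fell as far as the median luminal chaperone. Sec61a1 forms the channel itself. It was at 199.8, 216 and 212 CPM in fed PC and 205, 228 and 227 CPM in fed PP. After fasting it was at 128, 153 and 143 CPM in fasted PC and 143, 151 and 144 CPM in fasted PP. The states did not overlap, and the change was -0.58 ± 0.07 (log2, SE; adjusted p = 5.5e-05). Ssr1 and Ssr3 encode subunits of the translocon-associated protein complex. Ssr1 was at 109.7, 116 and 102 CPM in fed PC and 101, 108 and 104 CPM in fed PP. It fell to 56.7, 69.3 and 71.7 CPM in fasted PC and 67.8, 79.1 and 63.1 CPM in fasted PP. The fall in Ssr1 was -0.65 ± 0.08 (log2, SE; adjusted p = 7.5e-05) and separated every library. Ssr3 was at 372, 399.5 and 348 CPM in fed PC and 420.1, 409 and 372 CPM in fed PP. It fell to 211, 270.5 and 256 CPM in fasted PC and 234, 277 and 264 CPM in fasted PP. Here too every library was apart, by -0.62 ± 0.08 (log2, SE; adjusted p = 0.00015).

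Sec61b, a small subunit beside the channel, was at 34, 35.8 and 38.3 CPM in fed PC and 38.8, 43 and 28.3 CPM in fed PP. With fasting it was at 22.5, 32.2 and 29.9 CPM in fasted PC and 31.2, 29.5 and 30.2 CPM in fasted PP. Fed PP replicate 3 was below several fasted libraries, and the change was -0.31 ± 0.11 (log2, SE; adjusted p = 0.043). That call was lost, at values between -0.34 and -0.25, when any single library other than fed PP replicate 3 or fasted PC replicate 2 was left out, and 23.5% of its 31-base words occur in other genes. Sec11c is a catalytic subunit of the signal peptidase, and Spcs2 an accessory subunit. Sec11c was at 20.1, 16.7 and 17.1 CPM in fed PC and 18.9, 20.0 and 17.1 CPM in fed PP. It was at 11.5, 15.3 and 16.2 CPM in fasted PC and 13.8, 15.4 and 12.3 CPM in fasted PP after fasting. Its fall of -0.38 ± 0.11 (log2, SE; adjusted p = 0.014) was called over both zones and in neither zone alone (adjusted p = 0.14 in PC and adjusted p = 0.062 in PP).

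Spcs2 was at 18.7, 15.9 and 18.1 CPM in fed PC and 30.7, 22.4 and 20.9 CPM in fed PP. Fasted mice held 7.16, 13 and 21.1 CPM in fasted PC and 17.7, 13.1 and 11.6 CPM in fasted PP. Fasted PC replicate 3 lay above every fed PC library, and the change over both zones was -0.58 ± 0.22 (log2, SE; adjusted p = 0.062). Without fasted PC replicate 3 it was -0.81 (adjusted p = 0.0044).

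Per kilobase of exon, which allows levels of different genes to be compared, the order of the genes changed between the states. In fed PC the 4 highest were P4hb at 530, Hspa5 at 360, Hsp90b1 at 282 and Calr at 272 CPM per kb. In fasted PC they were P4hb at 446, Herpud1 at 188, Hsp90b1 at 167 and Calr at 147 CPM per kb, and Hspa5 stood at 113. In PP, Herpud1 went from 101 to 247 CPM per kb and Hspa5 from 493 to 131. Derl3, at 0.182 to 2.03 CPM per kb, was the lowest of the 32 in all 4 groups, and Sec11c and Spcs2 were next. Exon lengths were taken over all transcripts of a gene, and the longer transcripts of some genes may not be used in hepatocytes.

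Far fewer of the genes were called between the zones than between the feeding states. In fed mice no gene was called between PC and PP, where 4.72% of all tested genes were called. The test left 32 of 32 uncalled, with 30 negative log2 fold changes (PC lower than PP), a median of -0.28 against -0.014 over all genes, and a smallest adjusted p of 0.067, for Pdia6. Without fed PP replicate 1 that median was -0.05, and 8 of the 32 values turned sign. In fasted mice none was called either, where 6.4% of all genes were called, with 26 negative values, a median of -0.10 and an adjusted p of 0.05, just over the threshold, for Pdia6. In each state 7 genes had every PC library below every PP library, where 13.1% of all genes were so separated in fed and 10.6% in fasted mice. These were Dnajc3, Canx, Pdia6, P4hb, Edem2, Derl1 and Spcs2 in fed mice and Hspa5, Dnajb11, Dnajc3, Calr, Pdia3, Pdia6 and Herpud1 in fasted mice, so that Dnajc3 and Pdia6 were separated in both.

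Over both feeding states, 3 of the 32 were lower in PC, against 6.5% of all tested genes lower and 13% called in either direction. The median was -0.21, and -0.09 without fed PP replicate 1. Pdia6 changed by -0.51 ± 0.10 (log2, PC against PP, SE; adjusted p = 0.0046), Dnajc3 by -0.40 ± 0.10 (adjusted p = 0.017) and Calr by -0.29 ± 0.09 (adjusted p = 0.045). The zone values of Pdia6 were alike in both states, -0.50 ± 0.14 in fed and -0.51 ± 0.14 in fasted mice. The Calr call was lost, at values between -0.30 and -0.25, when any single library other than fed PC replicate 1, fed PP replicate 2 or fasted PP replicate 1 was left out. It was also lost with the replicate number as a block (-0.29, adjusted p = 0.052) and with no filter on low counts (-0.28, adjusted p = 0.085), and the block added Pdia3 (-0.34, adjusted p = 0.047). Without fed PP replicate 2, the lowest fed PP library for 18 of the genes, 5 were called lower in PC. These were the same 3 with Dnajb11 at -0.42 and Pdia3 at -0.40. Cholangiocyte markers were also lower in every PC library than in every PP library, by the sums given above, and the part of such cells in these values was not tested.

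For no gene of the 32 did the fasting response pass the test of a difference between the zones. The interaction test called 0 of the 32 and 0 of all 12086 genes (0%, edgeR's quasi-likelihood test). At an unadjusted p under 0.05 it marked 465 of all genes and 0 of the 32, and DESeq2 called 11 genes, 0 of them among the 32. The intervals show how large a difference could be missed. For Hspa5 the log2 fold change of fasting in PC minus that in PP was 0.24 ± 0.38 (SE), with a 95% interval from -0.58 to 1.06. A positive value means a smaller fall in PC. For Creld2 it was 0.53 ± 0.52, from -0.61 to 1.67. For Herpud1 it was -0.21 ± 0.28, from -0.83 to 0.40, and for Derl2 -0.18 ± 0.16, from -0.54 to 0.17. Only 7 of the 32 values were negative, which is to say that most falls were numerically larger in PP, and the median was 0.09. Without fed PP replicate 1 the median was -0.07, 14 of the 32 values turned sign, and that of Hspa5 was -0.19. Without fed PC replicate 1 that of Herpud1 was 0.02.

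Lists of further ER genes were called lower in smaller shares than the 32 genes, and their counts are to be read against 17.5% lower and 17.8% higher over all tested genes. Of 26 further folding genes, 17 were lower in fasted mice over both zones and 0 higher, with a median log2 fold change of -0.35. They included the oxidase Ero1lb at -1.21 ± 0.17, the Hsp70 relative Hspa13 at -1.13 ± 0.10 and the translocon stabiliser Serp1 at -0.76 ± 0.09 (log2, SE). Of 12 subunits of the oligosaccharyltransferase, which attaches glycans, 7 were lower and 0 higher, led by Ostc at -1.03 ± 0.10, Magt1 at -0.76 ± 0.07 and Stt3a at -0.60 ± 0.06. Of 18 further translocation genes, 10 were lower and 2 higher. Ssr2 at -1.54 ± 0.22, Srprb at -1.06 ± 0.09 and Srp54a at -0.77 ± 0.15 were the lowest, and the 2 higher ones were Tram2 at 1.22 ± 0.12 and Sec62 at 0.25 ± 0.08.

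Of 15 genes of export from the ER, 9 were lower and 1 was higher. The coat subunit Sec23b changed by -1.50 ± 0.09, its partner Sec24c by -0.74 ± 0.08 and the cargo receptor Lman1 by -0.66 ± 0.09, while Sec23a rose by 0.22 ± 0.08 (log2, SE). Of the 25 further degradation genes 9 were lower and 5 higher, a share of higher calls near that of all genes, with a median of 0.03. Ubxn4 at -1.05 ± 0.08, Svip at -0.70 ± 0.17 and Erlin1 at -0.63 ± 0.09 fell furthest. Herpud2, the paralog of Herpud1, rose by 0.50 ± 0.09, Dnajb12 by 0.42 ± 0.06 and Erlec1 by 0.34 ± 0.08.

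Among 11 further sensors and factors, 6 were lower and 1 higher. They were led by Atf6b at -0.99 ± 0.09, Creb3l2 at -0.97 ± 0.15 and Nfya, a subunit of NF-Y, at -0.95 ± 0.15, and the gene that rose was the hepatocyte factor Creb3l3 at 0.47 ± 0.07 (log2, SE). Genes listed for the PERK arm, Atf4 itself among them, were called in both directions. Of 11 tested, 4 were higher and 2 lower, the latter a share near that of all genes. The median log2 fold change of the 11 was -0.21. Chac1 rose by 2.71 ± 0.42 (adjusted p = 0.00045), Trib3 by 1.67 ± 0.31 (adjusted p = 0.0017) and Sesn2 by 1.38 ± 0.12 (adjusted p = 7e-06). Chac1 was rare, with means of 0.617 CPM in fed PC, 1.11 in fed PP, 4.82 in fasted PC and 6.23 in fasted PP. The 2 lower ones were Nupr1 at -0.67 ± 0.23 and Ppp1r15b at -0.31 ± 0.06. Nupr1 was also rare, with group means from 1.29 CPM in fasted PP to 2.27 CPM in fed PC. Atf4 at -0.21 ± 0.09 (adjusted p = 0.095) and Ddit3, which encodes CHOP, at -0.28 ± 0.18 (adjusted p = 0.23) were not called, and both were named after their values were seen. Of 10 tested genes that cell isolation induces, 2 were lower, a share near that of all genes, and 0 higher. The 2 were the cytosolic chaperones Dnajb1 at -0.61 ± 0.13 (adjusted p = 0.003) and Hspb1 at -0.98 ± 0.30 (adjusted p = 0.028). Hspa1b, a cytosolic Hsp70, had means of 71.7 CPM in fed PC, 43.9 in fed PP, 52.8 in fasted PC and 5.72 in fasted PP and was not called (-1.69 ± 0.74; adjusted p = 0.11). Its fed and fasted libraries overlapped in PC and not in PP. Jun, Junb and Egr1 had positive values, at 0.58, 0.88 and 0.39, and were not called. The part of cell isolation in the values of the ER genes was not tested. Hspa1b, Jun, Junb and Egr1 were named after their values were seen.

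**Figure D4:**
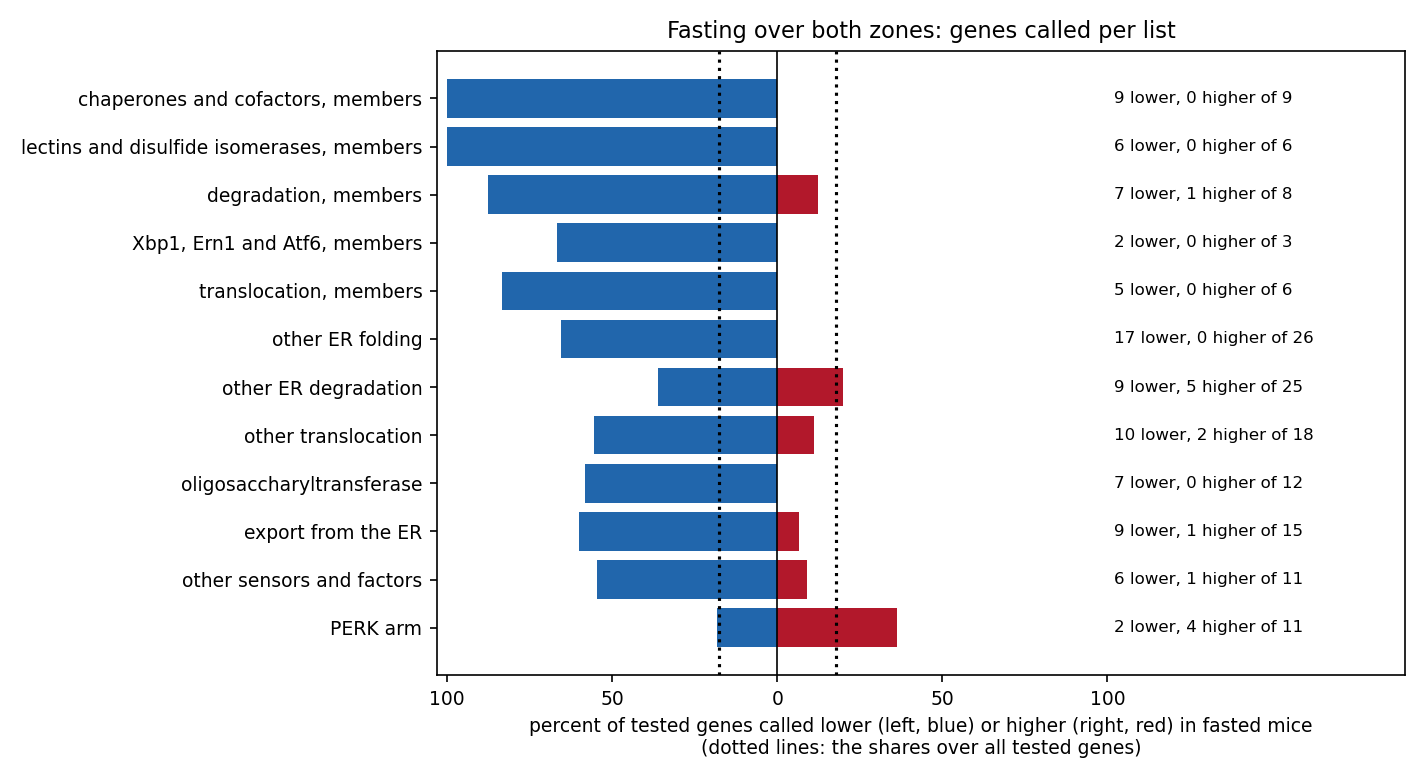
Percent of the tested genes of each list that were called lower (blue, to the left) or higher (red, to the right) in fasted mice over both zones, with the counts at the right and dotted lines at the shares over all tested genes. The chaperones and the lectins with the isomerases reach 100% on the left, and the genes of the PERK arm reach further to the right than to the left, with 4 higher and 2 lower of 11.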

How the data were processed

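The authors deposited gene-level estimated counts, made with kallisto 0.46.0 on mm10, per the submitters' processing notes; replicates were not pooled. The NEBNext Ultra kit named in the labels' protocols does not mark strand, so reads of overlapping genes on opposite strands, which touch exons of 8 of the 32 genes, cannot be told apart. The counts were rounded to whole numbers, filtered with filterByExpr, scaled by TMM and fitted with edgeR 4.0.16 (quasi-likelihood, robust) in R 4.3.3, with 1 mean per group over the 12 libraries and 7 contrasts. P-values were adjusted by Benjamini-Hochberg over 12086 genes and called under 0.05, and the SE is the unshrunk log2 fold change over the root of F. Simulated 2-fold changes, with 200 genes changed per contrast, were recovered in 69.3% of cases for fasting over both zones and 24.1% for the interaction. In the data 4264 genes were called for fasting over both zones, so the simulated share came under a stricter adjustment. Alternatives were RLE size factors, DESeq2 1.42.0, no filter, a replicate block, a fit of only the groups compared, and each library left out in turn. The smallest chi-square per degree of freedom between replicates was 23.9, so no library was a copy of another. Gene positions, exon lengths and the 31-base words shared between genes came from GENCODE, and promoters from RefSeq. The genes and lists were chosen with earlier results of these data known. From each further list at most the 3 called genes with the largest change per direction were named. Values in every library were given for all 32 genes.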

Additional observations from a re-analysis of the deposited data

How the results depend on the processing

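The number of genes called lower in fasted mice stayed within 1.5 times the reported one under every alternative, from 16 to 25 in PC, 20 to 27 in PP and 27 to 30 over both zones. Of the calls reported, 17 of 23 in PC, 21 of 27 in PP and 27 of 30 over both zones held under every alternative run, and those lost at least once over both zones were Derl3, P4hb and Sec61b. With each library left out in turn, the number called lower was 16 to 23 in PC, 20 to 26 in PP and 27 to 29 over both zones. Between zones in fed mice, 0 genes were called lower in PC as reported, 2 with DESeq2 (Pdia6 and Dnajc3), 1 with the replicate block (Pdia6) and 0 to 1 with a library left out. In fasted mice, 0 were called as reported and 1, Pdia6, with RLE size factors, DESeq2, the replicate block or only the libraries of the 2 groups, with 0 to 1 when a library was left out. Over both states the 3 genes lower in PC became 2 to 5 with a library left out, and 2 of the 3, Pdia6 and Dnajc3, held under every alternative. Atf6 changed sign with single libraries left out. Its values then ran from -0.08 to 0.17 in PC, with 0 among them, from -0.16 to 0.11 in PP, with 0.07 and 0.03 among them, and from -0.06 to 0.08 over both zones, with -0.01 (2 libraries) and -0.05 among them; none of these values passed the test. No other gene of the 32 turned in the fasting contrasts, and no called value turned anywhere. Under at least 1 alternative, 9 of the 32 values turned sign between zones in fed mice, 16 in fasted mice, 9 over both states and 23 in the interaction. The interaction of Hspa5 ran from -0.19 to 0.47 with a library left out and that of Herpud1 from -0.36 to 0.02. Over the fasting values and the zone and interaction values named, 1634 kept their side of the threshold, 106 lost a call, 27 gained one and 11 reversed. Same-numbered PC and PP libraries of the same feeding state, the only same-numbered pairs that could share a mouse, had deviations correlated from -0.11 to 0.24, with 3 of 6 pairs above 0.1. Differently numbered PC and PP libraries of the same feeding state ran from -0.25 to 0.21. The other 12 same-numbered pairs ran from -0.04 to 0.09. As not every pair passed 0.1, the numbers were not taken as pairs. With the replicate block, 22 genes were lower in fasted PC, 25 in fasted PP and 29 over both zones, and the calls lost were Sel1l for fasting in PP (-0.58, adjusted p = 0.073) and Calr between zones over both states. With 3 libraries a group, changes under 2-fold can be missed within a zone. In simulated data 16.4% of 1.5-fold changes were recovered for fasting in PC and 8.96% for fasting in PP, and 2.9% for the interaction. The simulation changed only 200 genes per contrast, whereas 2582 genes were called for fasting in PC and 2162 in PP. With so few changed genes the adjustment of p is stricter, so the fasting shares do not measure the power in these data.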

Other observations

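Outside the 32 genes, 28 genes carried letters of the ERSE in their RefSeq promoter, and 8 of these were measured well enough to be tested. Of the 8, 5 were lower in fasted mice over both zones and 0 higher, where 17.9% of the 9461 tested genes with a promoter in the table were lower. Acacb, the mitochondrial acetyl-CoA carboxylase that restrains fatty acid oxidation, had a mean of 299.1 CPM in fed PC, 346.5 in fed PP, 61.5 in fasted PC and 79.8 in fasted PP. This was a log2 change of -2.20 ± 0.43 (SE; adjusted p = 0.0036). Alg12, a mannosyltransferase that builds the glycan precursor in the ER, went from 9.52 and 7.05 CPM to 3.44 and 3.97 CPM in PC and PP (-1.15 ± 0.11; adjusted p = 1.4e-05). Ero1b, named Ero1lb above, went from 97.2 and 198.4 CPM to 47.3 and 76.1 CPM. The other two were Xlr3a (-1.60 ± 0.39; adjusted p = 0.0083) and Hnrnpa3 (-0.32 ± 0.10; adjusted p = 0.026), which have no known role in the ER. Whether any ERSE match outside the 32 lies in the same stretch of DNA as a match of a member was not examined. Among the 32, the 9 with an ERSE were all lower, at a median log2 fold change of -0.97, and of the 17 with a promoter and no ERSE 15 were lower and 1 higher, at a median of -0.65. No ERSE means only that no exact match lay within the bases searched. The printed stretch of Herpud1, the gene that was higher, ends in all but the last letter of the motif. Hyou1 and Manf, for which no promoter was given, are in neither group. The part of the ERSE in this difference was not tested.

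Besides Herpud1 and Dnajb11, 10 genes had an ERSE-II, and 6 of them were tested. Of the 6, 1 was higher and 1 lower in fasted mice (16.7% each), at a median log2 fold change of -0.03. These shares were near the 18.2% higher and 17.9% lower over the 9461 tested genes with a promoter. Rcl1, which serves ribosomal RNA processing, rose from 68.8 and 53.9 CPM in fed PC and PP to 148.6 and 117.6 CPM in fasted mice (1.12 ± 0.09; adjusted p = 3.1e-06). Krtcap2, a subunit of the oligosaccharyltransferase, fell by 0.27 on the log2 scale (adjusted p = 0.044), and the other 4 were not called. Genes with the CARE core, which Herpud1 also holds, were lower in 14 and higher in 17 of 67 tested genes outside the 32, at a median of 0, where 17.9% of the 9461 were lower and 18.2% higher.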
